A study of Mus musculus with 6 samples.

Results

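Single retained introns were compared between double-negative 3 (DN3) thymocytes of WT mice and of Hspa9 cKO mice, all 5 weeks old. DN3 cells are early T cell precursors of the thymus that rearrange the T cell receptor beta gene. Hspa9 encodes the HSP70 chaperone of the mitochondrial matrix, and cKO stands for a conditional knockout whose Cre driver the labels do not name. There were 3 RNA-seq libraries in each group. Whether they stem from different mice is not in the labels, and the p-values cover library-to-library spread alone, technical spread included. Values listed for a group follow the order of its replicates 1, 2 and 3. The authors' tables give 1 value, in FPKM (fragments corrected for feature length and sequencing depth), for each transcript-structure event. A retained-intron event has a retaining form (ON, a single exon that runs through the intron) and a spliced form (OFF, the same outer edges with the intron removed). ON and OFF events of the same intron, gene and outer edges were paired, and pairs with a mean ON + OFF of at least 5 FPKM over the 6 libraries were kept. This gave 3159 of 4992 retained-intron pairs, against 9781 paired splicing events of every kind above the same level. The kept pairs covered 3138 different introns in 2111 annotated genes, 1439 of which held 1 pair; the most in 1 gene was 10. The pairs were thus chosen by their mean level over all 6 libraries. The retained share is 100 × ON / (ON + OFF), in percent.

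Most introns are removed by the spliceosome, in which the U1 particle binds the 5′ splice site, the U2 particle binds the branch point with the help of the SF3A and SF3B complexes, and the tri-snRNP brings in the catalytic step. A transcript that keeps an intron usually meets a stop codon inside it, and is then held in the nucleus or degraded by nonsense-mediated decay. Some introns are kept on purpose, and in several splicing factors and kinases such introns tune the level of the protein. Xbp1 holds a special intron that the endoplasmic reticulum stress sensor IRE1 cuts in the cytoplasm, without the spliceosome.

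The deletion was visible in the event tables. The share of Hspa9 transcripts that included exons 2 to 4 was 100%, 89.9% and 86.1% in WT and 21.3%, 13.6% and 22.9% in Hspa9 cKO, while the summed level of the gene was not called (log2 change 0.01, SE 0.09; limma, adjusted p = 0.952). All 16 DN3 marker genes (Ptcra, Rag1, Il2ra and others) were above 1 FPKM on average. Their summed level ran from 2579.7 to 2878 FPKM in WT and from 3612 to 3795 FPKM in Hspa9 cKO. The summed level of 6 markers of later T cells was 20.7 to 23.0 FPKM in WT and 13.4 to 14.4 FPKM in Hspa9 cKO. Of 5 NK cell markers only Nkg7 had a level, at 29.6 to 32.9 FPKM in WT and 57.5 to 61.6 FPKM in Hspa9 cKO. The groups also stood apart for the 7 markers of stroma and epithelium (3 with a level), summed to 47.8 to 49.4 and 64.1 to 69.4 FPKM, and for B cells (1 of 6 with a level), at 9.75 to 12.6 and 15.3 to 18.3 FPKM. In bulk RNA, fewer cells of a type and less RNA per cell cannot be told apart, and the part of these shifts in the results was not tested. Some defining markers of other cells had no listed start or end, among them Ms4a1 and Pax5 of B cells, Itgam and Cd14 of myeloid cells, Ncr1 and Eomes of NK cells and Foxn1 and Krt5 of thymic epithelium. Other markers had a level. The 4 of 7 myeloid markers with a level summed to 9.56 to 16.7 FPKM in WT and 14.7 to 16.2 FPKM in Hspa9 cKO. For 3 of 5 erythroid markers the sums were 9.24 to 31.3 and 16.5 to 21.3 FPKM. For 4 of 5 markers of the earlier DN1 and DN2 stages they were 8.09 to 10.5 and 7.61 to 9.78 FPKM. The groups overlapped in these lists. The tables hold no counts, so the depth is unknown, and an event that a table does not list was set to 0, which can be a failed estimate.

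The introns on which the results turn are shown first, where an annotated transcript (GENCODE M21, mm10) carries the intron inside an exon. The first 3 introns belong to genes with a called difference, and the capitals mark 20 intron bases at each edge beside 10 exon bases. Sf3b1 intron 4 lies at chr1:55014563-55016375 on the minus strand, Ctdsp1 intron 2 at chr1:74393427-74393796 on the plus strand and a Sik1 intron at chr17:31849082-31849518 on the minus strand; all 3 separate coding exons.
Sf3b1 5′ edge: tttgcagatgGTAATTCTTTCCCACTTTTC
Sf3b1 3′ edge: GTTGCTGTTCTTTTCTGCAGgagggaagac
Ctdsp1 5′ edge: catccctaagGTTTGTGGCAATTTGGATGC
Ctdsp1 3′ edge: CAGCCCAGCCCTCCCCACAGcacaccccag
Sik1 5′ edge: cagtctggagGTAAGGCTGAGCTCCCTCTC
Sik1 3′ edge: TCCCTCCTTTCTGGCCCCAGgttcctcaag
The next 3 are whole short introns whose share differed without a called ratio, with the first stop codon in the reading frame of the exon before them in capitals. They lie at chr17:45571620-45571764 on the minus strand (Hsp90ab1), chr11:51275579-51275769 on the plus strand (Clk4) and chr15:80963730-80963879 on the plus strand (Adsl).
Hsp90ab1 145 nt: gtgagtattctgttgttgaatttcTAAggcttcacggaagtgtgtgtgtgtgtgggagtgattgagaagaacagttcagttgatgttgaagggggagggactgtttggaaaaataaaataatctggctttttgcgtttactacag
Clk4 191 nt: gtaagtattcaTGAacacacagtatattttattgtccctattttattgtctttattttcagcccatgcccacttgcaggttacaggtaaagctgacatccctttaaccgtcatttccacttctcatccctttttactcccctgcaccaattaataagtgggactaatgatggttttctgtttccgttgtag
Adsl 150 nt: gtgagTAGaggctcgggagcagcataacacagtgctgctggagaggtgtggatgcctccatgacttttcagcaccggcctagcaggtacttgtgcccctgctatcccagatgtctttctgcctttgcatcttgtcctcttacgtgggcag
The last 2 are very short stretches, with the removed bases in capitals between 20 exon bases on each side, at chr11:5524278-5524303 on the plus strand (Xbp1) and chr17:45571482-45571518 on the minus strand (Hsp90ab1).
Xbp1 26 nt: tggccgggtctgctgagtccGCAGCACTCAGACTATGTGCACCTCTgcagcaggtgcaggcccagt
Hsp90ab1 37 nt: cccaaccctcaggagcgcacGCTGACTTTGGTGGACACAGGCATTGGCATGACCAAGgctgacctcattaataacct

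In both of these last events the first bases of the removed stretch are repeated just after it. For each, 7 placements of the removed bases, shifted by 0 to 6, give the same joined product, so the position that the tables give is 1 of 7.

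The introns of the pairs were short. Their median length was 452 bases, from 21 in Gar1 to 12954 in Mgst2. In protein-coding genes 27.0% of them were under 200 bases, against 13.1% of the 166522 annotated introns of protein-coding genes with a level. Of the 3159 pairs, 2981 lay between coding exons, 25 in 5′ UTRs, 20 in 3′ UTRs and 133 in noncoding or unannotated stretches. The intron itself was annotated in 3070 pairs, and in 1670 it lay inside an exon of some annotated transcript. Of these 1670 introns, 1638 began with GT and ended with AG, 24 ran from GC to AG and 2 from AT to AC. The exact retaining exon was annotated in 1427 pairs, for 1148 of them in transcripts of the class retained_intron alone.

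Introns inside an annotated exon were more often listed in every library. Both events were listed in all 6 libraries for 1109 of the 1670 pairs whose intron lies inside an annotated exon (66.4%) and for 107 of the other 1489 (7.19%). Reading frame could be followed through 1569 coding introns, and 1365 of them held an in-frame stop. The 204 without one were shorter, with a median of 90.5 bases against 308. Their median share, averaged over the 6 libraries, was 7.62% against 4.54%, and 18.6% of them had a mean share of at least 50%, against 5.57% of those with a stop. These are descriptions of the pairs, and intron length was not held constant.

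Retention was low for most introns in every library. The median share was 1.05%, 0.611% and 1.32% in WT against 1.07%, 1.43% and 1.66% in Hspa9 cKO, so the groups overlapped. Averaged over the libraries, 374 pairs had a share under 1%, 1807 between 1% and 10%, 768 between 10% and 50%, 135 between 50% and 90% and 75 of 90% or more. The retaining form was not listed in 1103 to 1263 pairs per library, with the highest number in WT replicate 2, and the spliced form in 70 to 91. Among the 1216 pairs with both events listed in all 6 libraries WT had a median share of 6.48% ± 0.230 (SD, n = 3), and the value for Hspa9 cKO was 6.45% ± 0.125 (SD, n = 3).

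**Figure D1:**
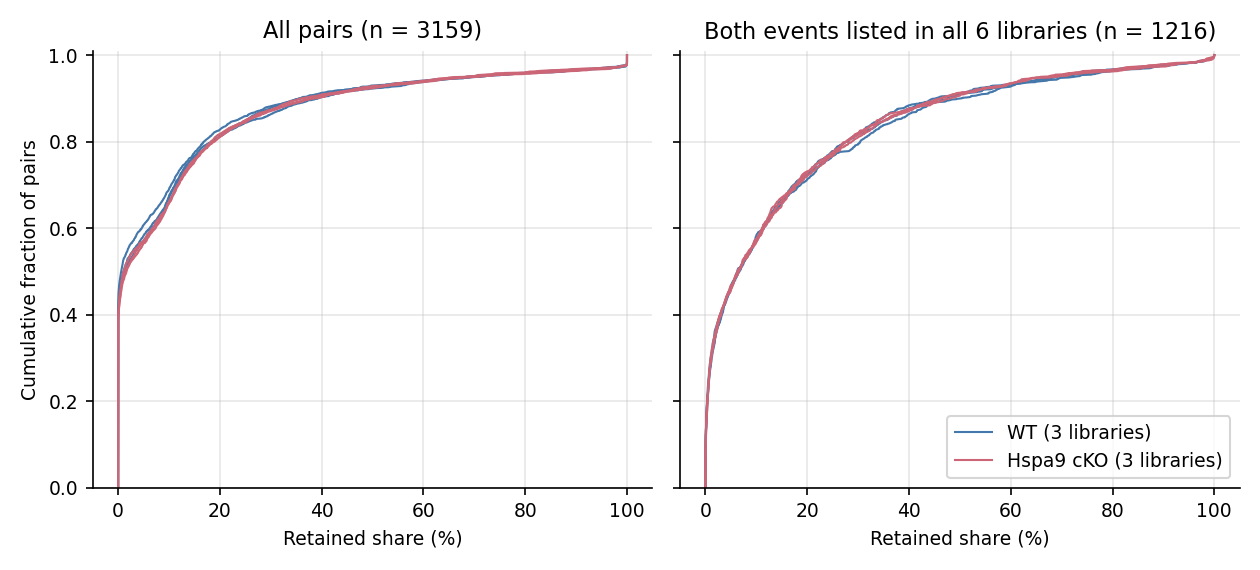
Cumulative fraction of pairs (vertical axis) against the retained share in percent (horizontal axis), with 1 line for each library, blue for WT and red for Hspa9 cKO; all 3159 pairs on the left and the 1216 pairs with both events listed in all libraries on the right. The 6 lines lie close together, and the left panel rises steeply at 0% because 1103 to 1263 pairs per library had no listed retaining form.

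The ratio of summed FPKM gave a slightly different picture from the median. Summed ON over summed ON + OFF was 10.4%, 10.3% and 10.4% in WT against 10.7%, 11% and 11.4% in Hspa9 cKO, which do not overlap. Summed ON by itself did overlap, at 9373 to 10205 FPKM in WT and 9604 to 10404 FPKM in Hspa9 cKO. Summed OFF was lower in Hspa9 cKO without overlap, at 80497 to 81105 FPKM against 81767 to 88017 FPKM in WT. A share of at least 10% was reached by 1010.3 ± 34.3 pairs per WT library (SD, n = 3) and by 1072 ± 7.23 pairs per Hspa9 cKO library (SD, n = 3), which do not overlap either. Among pairs with both events listed in all libraries the summed share was 9.11% ± 0.373 in WT and 10.2% ± 0.724 in Hspa9 cKO (SD, n = 3 each), again without overlap. The numbers of these pairs with a share of at least 10% were 519 ± 9.81 and 522 ± 5.51 (SD, n = 3 each), and the groups overlapped. They also overlapped in the mean share over all pairs, 12.3% ± 0.440 and 12.7% ± 0.108 (SD, n = 3 each). The sum is led by abundant genes, and a single intron can weigh on it in 1 library. Eef1a1 encodes the translation elongation factor that brings in aminoacyl-tRNA. Its 85-base intron held 917 of the 10404 FPKM of retaining forms in Hspa9 cKO replicate 3 (share 18.8%), and 6.07 to 19.2 FPKM elsewhere (0.159% to 0.463%).

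By level, the median share of pairs listed in all 6 libraries was lower from 20 FPKM up than below that level. The median share in WT was 10.8% ± 1.68 (SD, n = 3) for 270 pairs of 5 to 10 FPKM, 9.03% ± 0.956 (SD, n = 3) for 396 pairs of 10 to 20 FPKM, 5.23% ± 0.294 (SD, n = 3) for 365 pairs of 20 to 50 FPKM and 1.98% ± 0.110 (SD, n = 3) for 185 pairs of 50 FPKM or more. In Hspa9 cKO the same classes had 9.22% ± 0.957, 9.64% ± 0.728, 5.28% ± 0.554 and 1.74% ± 0.0447 (SD, n = 3 each). The groups overlapped in each class but that of 50 FPKM or more. This order was not seen over all pairs of the classes (1038, 1085, 765 and 271), where the medians were 0.524%, 1.04%, 1.67% and 0.980% in WT and 1.42%, 1.45%, 1.60% and 1.15% in Hspa9 cKO, with groups that overlapped in every class. Pairs of low level were listed in all libraries least often, 270 of 1038 in the lowest class. By length, the 42 pairs with introns of 2000 bases or more that were listed in all libraries had median shares of 11.6% ± 1.14 (WT) and 15.8% ± 0.779 (Hspa9 cKO; SD, n = 3 each). The groups did not overlap there, but over all 326 pairs with introns of this length they did, with medians of 0.0151% and 0.0339%. In the 249 introns of 100 to 199 bases the medians were 5.29% ± 0.270 and 4.77% ± 0.586 (SD, n = 3 each). Over all 525 pairs with introns of at least 1000 but under 2000 bases the groups did not overlap, with medians of 0.00451% and 0.206%. Their mean share was 8.54% ± 0.164 in WT and 9.74% ± 0.420 in Hspa9 cKO (SD, n = 3 each). In the 127 of these pairs listed in all libraries the medians overlapped, at 6.55% and 7.27%. Over all 389 pairs of 100 to 199 bases the mean share was lower in Hspa9 cKO without overlap, 17.5% against 18.1%. No test was made on these class values, since the pairs of a class are not replicates.

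Which introns differed between the groups was tested on log2((ON + 1)/(OFF + 1)) with limma, adjusting p over all 9781 ratios. At an adjusted p under 0.05, 15 of the 3159 retained-intron pairs were called (0.475%), against 0.317% of the ratios of every kind. The ratio was higher in Hspa9 cKO in 8 of them and lower in 7, while 0.204% of all ratios were called higher and 0.112% lower. At an unadjusted p under 0.05 there were 262 pairs (8.29%), against 9.73% of all ratios. The median log2 change was -0.01 for the retained introns and 0.08 over ratios of every kind. The shares of the groups did not overlap in 286 of the 3097 pairs with a share in all libraries (9.23%), 140 higher and 146 lower in Hspa9 cKO, against 10.3% over every kind of pair. The 8.29% and 9.23% are near the background. The 0.475% of adjusted calls lies above its background of 0.317%, a difference that was not tested. The 15 called pairs lay in 14 introns of 12 genes, and in 12 of them 1 of the 2 forms was not listed in any library of 1 group. The called introns of Lck, Mdm4, Arl5c, Hjurp, Pik3cd, Tnfaip3 and Sub1 and the 3385-base Ivns1abp intron lie inside no annotated exon. Of all such pairs only 7.19% had both events listed in every library, against 66.4% of the others. A form missing from 1 group can thus be a failed estimate, and its part in these calls was not tested. For 10 of the 15, leaving out any 1 library ended the call (limma, adjusted p between 0.0544 and 0.170). The call of Lck held without each library in turn, that of Sf3b1 without 4 of the 6, and those of Mdm4 and of both 3385-base Ivns1abp pairs without 1 library only (WT replicate 3, and Hspa9 cKO replicate 2 for the Ivns1abp pair that was higher). When the ON and OFF events were tested singly over all pairs, 3.29% of events were called, and event tests are given below where they add to the ratio.

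**Figure D2:**
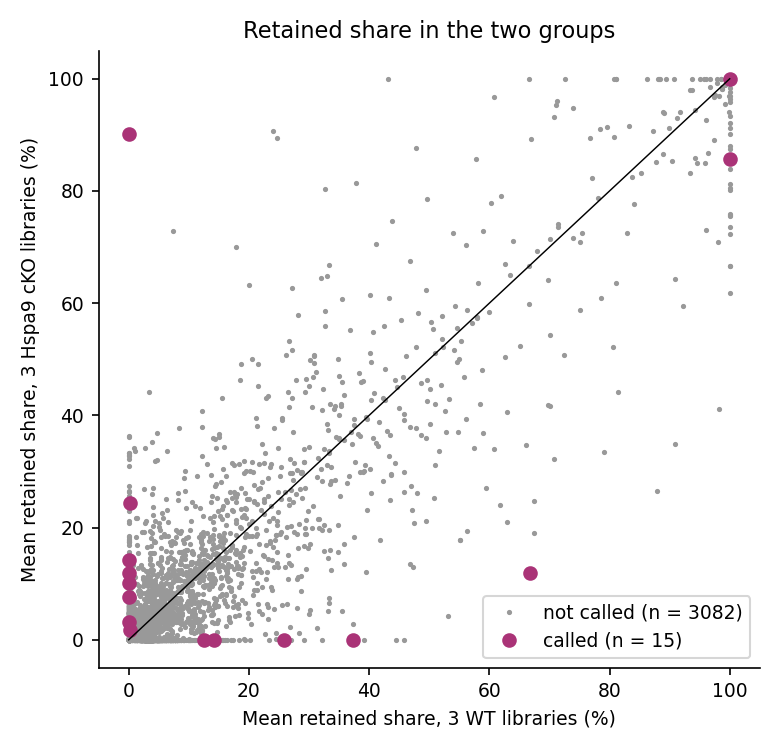
Mean retained share over the 3 Hspa9 cKO libraries (vertical axis, percent) against that over the 3 WT libraries (horizontal axis, percent) for the 3097 pairs with a share in every library; grey points are pairs not called and large points the 15 called pairs, and the line marks equal shares. Most called pairs lie on an axis, where 1 group has no listed retaining form.

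Sf3b1 showed the clearest gain of a retained intron. It encodes the largest subunit of the SF3B complex, which holds the branch point. The retaining form of intron 4 (of 24; 1813 bases) was at 0.103, 0.127 and 0.126 FPKM in WT against 19.6, 22.8 and 18.9 FPKM in Hspa9 cKO. The 2 groups lie far apart, and the share went from 0.149% ± 0.0133 to 24.4% ± 2.13 (SD, n = 3 each). The log2 ratio changed by 4.57 (SE 0.26; limma, adjusted p = 0.00940), and the ON event alone by 4.25 (limma, adjusted p = 0.00212). The spliced form, at 63.1 to 92.8 FPKM in WT and 62.1 to 65.2 FPKM in Hspa9 cKO, changed by -0.32 (limma, adjusted p = 0.324). The level of the gene as a whole changed by 0.03 (limma, adjusted p = 0.85). The first in-frame stop begins at base 141 of the intron whose edges are shown above, and the annotated retaining transcript is of the class retained_intron. A second Sf3b1 pair, of 306 bases, was listed in WT replicates 1 and 3 alone. The call of intron 4 was lost without WT replicate 2 or Hspa9 cKO replicate 3 (adjusted p up to 0.0644, limma).

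Arl5c, Hjurp and Pik3cd had a retaining form that no WT library listed. Arl5c encodes a small GTPase of the ARF-like family; the retaining form of its intron 3 (chr11:97993509-97994337, minus strand, 829 bases) was at 7.87, 7.19 and 8.28 FPKM in Hspa9 cKO, which is a share of 14.2% ± 1.47 (SD, n = 3; limma, adjusted p = 0.0188). Hjurp encodes the chaperone that loads the centromeric histone CENP-A, and its intron 3 (chr1:88272766-88275041, minus strand, 2276 bases) was retained at 5.55, 6.73 and 7.09 FPKM in Hspa9 cKO, which is a share of 12% ± 1.29 (SD, n = 3; limma, adjusted p = 0.0228). Pik3cd encodes the leukocyte catalytic subunit of phosphoinositide 3-kinase; intron 8 (chr4:149657468-149658381, minus strand, 914 bases) was retained at 7.14, 5.38 and 9.06 FPKM in Hspa9 cKO, which is a share of 7.65% ± 2.06 (SD, n = 3; limma, adjusted p = 0.0291). In all 3 genes the spliced form stayed between 37.9 and 93.4 FPKM in the 6 libraries, and the gene level was not called. No fold can be given against libraries in which an event is not listed.

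Lck had a retaining form that only the WT libraries listed. It encodes the tyrosine kinase that acts first below the pre-T cell receptor. The retaining form of intron 4 (chr4:129556748-129557033, minus strand, 286 bases) was at 55.7, 74.8 and 71.7 FPKM in WT, and no Hspa9 cKO library listed it, while the spliced form was at 480, 446 and 493 FPKM in WT and at 548, 537 and 516 FPKM in Hspa9 cKO. The share was 12.5% ± 2.0 (SD, n = 3) in WT, and the log2 ratio changed by -6.26 (SE 0.21; limma, adjusted p = 0.00124). The gene as a whole changed by 0.29 (limma, adjusted p = 0.084). Here 3 of 3 WT libraries listed the form at more than 50 FPKM and 0 of 3 Hspa9 cKO libraries listed it at all.

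Ctdsp1 lost most of its retained form. It encodes a phosphatase of the RNA polymerase II tail. The share of its 370-base intron 2 was 72.5%, 63.0% and 64.7% in WT against 13.3%, 11% and 11.4% in Hspa9 cKO. Both forms moved: the retaining form was at 17.5 to 19.1 FPKM in WT and 2.76 to 4.04 FPKM in Hspa9 cKO, and the spliced form at 7.24 to 10.3 and 22.4 to 26.4 FPKM (limma, adjusted p = 0.00490 and 0.0179 for the 2 events). The log2 ratio changed by -3.51 (SE 0.35; limma, adjusted p = 0.0318), and the gene level by 0.03 (limma, adjusted p = 0.87). The first in-frame stop begins at base 40 of the intron. A second Ctdsp1 intron, of 564 bases, had a retaining form in Hspa9 cKO replicates 1 and 3 alone, at 3.98 and 3.99 FPKM (limma, adjusted p = 0.51).

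Mdm4 and Sub1 also had a retaining form listed in WT alone. Mdm4 encodes an inhibitor of p53; its 4415-base intron 6 (chr1:133004722-133009136, minus strand) had a share of 52.6%, 40.7% and 18.8% in WT (limma, adjusted p = 0.0483). The WT libraries spread widely there, and the spliced form was at 11.1 to 18.7 FPKM in WT and 37 to 44.1 FPKM in Hspa9 cKO. Sub1 encodes a transcriptional coactivator, and its 4394-base intron 3 (chr15:11986565-11990958, minus strand) had a share of 11.2%, 14.5% and 16.6% in WT (limma, adjusted p = 0.0492). Both calls lie at the threshold: with all pairs of at least 1 FPKM included, the adjusted p was 0.0520 for Mdm4 and 0.0582 for Sub1 (limma).

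Ivns1abp, which encodes a kelch-domain protein, held 3 of the 15 called pairs, and they are not separate findings. A single 3385-base intron (intron 8, chr1:151356237-151359621, plus strand) occurred with different outer edges. With the first pair of edges the retaining form was not listed in WT and was at 6.30, 11.4 and 7.85 FPKM in Hspa9 cKO. The log2 ratio change of 7.57 there also takes in a lower spliced form in Hspa9 cKO. With the second pair of edges the retaining form was at 6.57, 9.20 and 12.6 FPKM in WT and not listed in Hspa9 cKO, with a change of -4.14. When all edges of this intron were summed to 1 value the change was -0.34 (limma, adjusted p = 0.722), so the calls were made between sets of edges, and the intron as a whole was not called. The third pair, an 817-base stretch at chr1:151355312-151356128, had a share of 100% in the WT libraries and 83.7%, 88.5% and 84.9% in the Hspa9 cKO libraries, and its retaining form has the same 6 values as the spliced form of the second pair. Its call was lost when retained-intron pairs were fitted alone (limma, adjusted p = 0.172). A further pair of the long intron, with other edges again, had a share of 11.1% and 9.78% in WT replicates 1 and 2 and 0% elsewhere. In all, 407 of the 3159 pairs had an event whose 6 values equal those of an event of another pair.

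**Figure D3:**
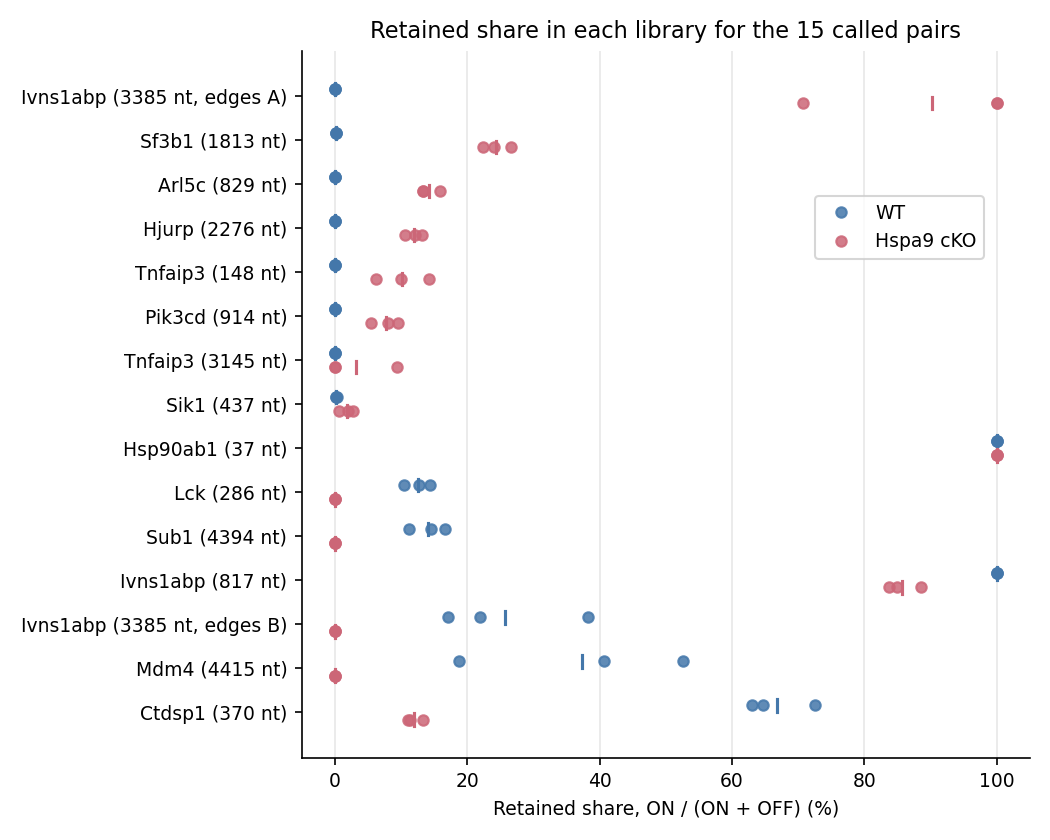
Retained share in percent (horizontal axis) for the 15 called pairs (vertical axis, gene and intron length); points are libraries, blue for WT and red for Hspa9 cKO, and short bars the mean of 3. Ctdsp1 goes from 66.8% to 11.9% and Sf3b1 from 0.149% to 24.4%, while Hsp90ab1 and Sik1 hardly move; edges A and B are the 2 sets of outer edges of the same Ivns1abp intron.

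In 4 called pairs, those of Sik1, Tnfaip3 and Hsp90ab1, the host gene itself was called lower in Hspa9 cKO. Sik1 encodes a salt-inducible kinase. Its retaining form was at or below 0.146 FPKM in every library, and the spliced form fell from 36.2, 42.1 and 41.5 FPKM in WT to 5.06, 5.21 and 6.70 FPKM in Hspa9 cKO, beside a log2 change of -2.93 for the gene (limma, adjusted p = 0.0021). The share was 0.230% ± 0.0401 and 1.77% ± 1.10 (SD, n = 3 each). The call was lost at a pseudocount of 0.1 FPKM (limma, adjusted p = 0.183). Tnfaip3 encodes A20, an inhibitor of NF-kB signalling, and the gene fell by 1.68 on the log2 scale (limma, adjusted p = 0.0020). The retaining form of its 148-base intron 4 (chr10:19007034-19007181, minus strand) was not listed in WT and was at 1.39, 2.87 and 2.42 FPKM in Hspa9 cKO. That of its 3145-base intron 2 was listed only in Hspa9 cKO replicate 2, at 2.87 FPKM, beside a spliced form at 79.6 to 84.5 FPKM in WT and 2.62 to 27.7 FPKM in Hspa9 cKO. The call of intron 2 was lost at a pseudocount of 0.1 FPKM (limma, adjusted p = 0.171).

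Hsp90ab1 is the extreme case. It encodes the constitutive cytosolic HSP90. The 37-base event shown above had a share of 100% in every WT library and of at least 99.99% in every Hspa9 cKO library, since the joined form was at most 0.0594 FPKM. Its called change of -0.57 (SE 0.05; limma, adjusted p = 0.0190) was lost when retained-intron pairs were fitted alone (limma, adjusted p = 0.711), and stood beside a fall of the unbroken form from 1276 to 1294 FPKM in WT to 898 to 947 FPKM in Hspa9 cKO. The gene itself fell by 0.51 on the log2 scale (limma, adjusted p = 0.0050).

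**Figure D4:**
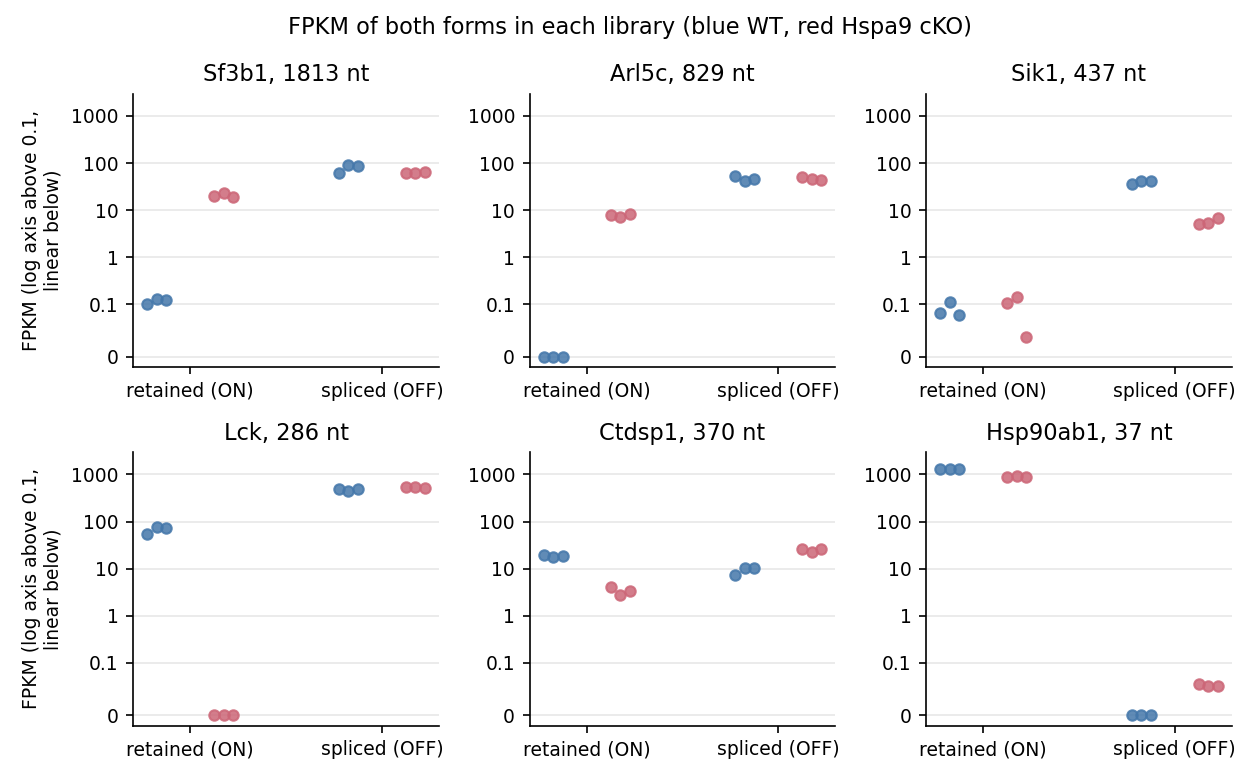
FPKM (vertical axis, logarithmic above 0.1 and linear below) of the retaining and the spliced form in each library, blue for WT and red for Hspa9 cKO, for 6 called pairs. In Sf3b1, Arl5c and Lck the retaining form differs and the spliced form is close to level, in Ctdsp1 both forms differ in opposite directions, and in Sik1 and Hsp90ab1 the form that differs is the one that carries nearly all of the gene's level.

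Pairs with both forms listed in every library allow a closer look, since no value rests on an unlisted event. There, 176 of 1216 retained-intron pairs (14.5%) had shares that did not overlap between groups, 74 higher and 102 lower in Hspa9 cKO, against 15.1% of the 3806 pairs of every kind listed in all libraries. In 21 of the 176, or 1.73% of the 1216, the mean share also differed by at least 20 percentage points, against 2.76% over every kind. The 14.5% is thus near the background, while the 1.73% lies below it, a difference that was not tested. Only 3 of the 1216 were called in a fit of the pairs of every kind listed in all libraries (limma), the introns of Sf3b1, Sik1 and Ctdsp1. The pairs with the smallest p beyond these are described with their values, and none passed the adjusted threshold.

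Higher shares in Hspa9 cKO came from introns of genes with varied roles. The Clk4 intron 7, in a kinase that phosphorylates SR splicing factors, had a share of 6.10%, 7.03% and 7.48% in WT against 14%, 16.6% and 13.7% in Hspa9 cKO (log2 ratio change 0.95, SE 0.24; limma, adjusted p = 0.317). The Clk4 gene level changed by -0.04 (limma, adjusted p = 0.88). The Adsl intron 8, in a purine synthesis enzyme, had 0.798%, 0.883% and 0.341% in WT and 5.47%, 6.65% and 6.54% in Hspa9 cKO (limma, adjusted p = 0.209). Its first in-frame stop begins at base 6 of the intron and its annotated retaining transcript is of the decay class. The groups did not overlap at either gene. The share in Brd8, a subunit of the NuA4 acetyltransferase complex, was 0.00267%, 0.00629% and 3.49% in WT and 19.8%, 14.8% and 20.4% in Hspa9 cKO (limma, adjusted p = 0.0887). In Csf2ra, a cytokine receptor chain, it was 37.8% ± 6.56 and 81.5% ± 4.11 (SD, n = 3 each; limma, adjusted p = 0.148), and in Ccnl2, a cyclin L that takes part in splicing, 71.2% ± 16.3 and 96.0% ± 0.962 (SD, n = 3 each; limma, adjusted p = 0.207). Kif22, a mitotic kinesin, had 2.50% ± 2.27 and 9.91% ± 1.67 (SD, n = 3 each; limma, adjusted p = 0.328) while its gene level fell by 0.66 on the log2 scale (limma, adjusted p = 0.010).

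Lower shares in Hspa9 cKO included a second Hsp90ab1 event. The 145-base intron of Hsp90ab1 was retained at 18, 18.2 and 13.6 FPKM in WT against 0.882, 1.40 and 0.0234 FPKM in Hspa9 cKO, or a share of 1.28% ± 0.200 and 0.0828% ± 0.0738 (SD, n = 3 each). Its log2 ratio change of -2.90 (SE 0.34) lay just outside the threshold (limma, adjusted p = 0.0506). Rccd1 had 22.6% ± 2.66 and 1.11% ± 0.825 (SD, n = 3 each; limma, adjusted p = 0.148) and Wbp1 16.7% ± 1.49 and 3.45% ± 2.25 (SD, n = 3 each; limma, adjusted p = 0.281). In Cnbp, a nucleic acid-binding zinc finger protein, the WT libraries spread from 17.8% to 77.7% against 1.45% to 7.41% in Hspa9 cKO (limma, adjusted p = 0.230). The 71-base intron at chr2:181382545-181382615, in a stretch where Zgpat overlaps other genes, had 8.50%, 1.92% and 0.330% in WT and at most 0.0931% in Hspa9 cKO (limma, adjusted p = 0.212). WT replicate 3 lay close to Hspa9 cKO there, and reads of overlapping genes make the value uncertain.

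Xbp1 is named after its values were seen, because its 26-base event has the length of the stretch that IRE1 removes. The unbroken form was at 11.8, 15.3 and 25.3 FPKM in WT against 33.5, 4.98 and 10.3 FPKM in Hspa9 cKO. The joined form, which encodes the active transcription factor, was at 1.85 and 2.42 FPKM in WT replicates 1 and 2, not listed in WT replicate 3, and at 7.42, 67.8 and 53.7 FPKM in Hspa9 cKO. The unbroken share was therefore 86.4%, 86.3% and 100% in WT and 81.9%, 6.84% and 16.2% in Hspa9 cKO. The groups do not overlap, but Hspa9 cKO replicate 1 lies close to WT, and the ratio was not called (log2 change -4.30, SE 1.59; limma, adjusted p = 0.487). The gene level rose by 1.12 on the log2 scale (limma, adjusted p = 0.0065). A second Xbp1 pair, of the 771-base intron 3, has the unbroken form as its spliced event and had a share of 18.2% to 42.5% in WT and of 0% to 47.4% in Hspa9 cKO.

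Stretches under 60 bases made up 9 of the 3159 pairs, also named after their values were seen. They included stretches in Gar1 (21 bases), Srrm1 (24), Xbp1 (26), Nfx1 (33), Ehmt2 (36), Hsp90ab1 (37), Diexf and Cul7 (51 each). In Gar1, Srrm1, Nfx1, Ehmt2 and Diexf the joined form was listed in 1 library alone. Cul7, a cullin of ubiquitin ligases, listed it in Hspa9 cKO replicates 1 and 2, with an unbroken share of 51.4% and 34.2% there and 100% in the other libraries. Most of these events thus rest on a single library.

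The highest shares belonged to stretches that most transcripts keep. Among pairs of at least 20 FPKM, those with the highest mean share included Hsp90ab1, Chtop, Rpl41, Ptprs, Sec24c, Bsg and Nfx1, all between 94.9% and 100% wherever a share could be formed. The retaining exon is annotated in protein-coding transcripts for all of these but Rpl41, so the spliced form is the rarer variant. Rpl41, a protein of the large ribosomal subunit, was at 38.4 to 91.1 FPKM in WT, and Hspa9 cKO replicate 1 listed neither form although the gene had a level of 199 FPKM there. That value shows that an unlisted form can occur in an abundant gene.

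Eef1a1 had the highest mean ON + OFF of all pairs, 4671 FPKM, and Rps16, Rps18, Hsp90ab1 and Rpl3 were also among the highest. Rps16, of the small ribosomal subunit, kept its 89-base intron 3 at an even 9.74% to 12.7% in WT and 12.1% to 12.8% in Hspa9 cKO, which did not differ by more than the spread (limma, adjusted p = 0.837). Rps18 stayed between 0.118% and 0.255% in the 6 libraries. Rpl3 stood at 7.88% to 16.6% in WT, where replicate 2 was highest, and at 7.10% to 8.03% in Hspa9 cKO.

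By gene class, 3105 pairs lay in protein-coding genes, 28 in long noncoding genes, 9 in pseudogenes or T cell receptor segments and 17 on patch or unplaced sequence. The summed share of the protein-coding pairs was 10.3% ± 0.0735 in WT and 11% ± 0.394 in Hspa9 cKO (SD, n = 3 each). That of the 28 long noncoding pairs was 10.7% ± 0.774 and 7.63% ± 0.947 (SD, n = 3 each), and the groups did not overlap in either class. H19, an imprinted noncoding RNA, had a spliced form at 109 to 119 FPKM in WT and 183 to 291 FPKM in Hspa9 cKO, at a share of at most 0.655% in every library. The spliced forms of the class summed to 780.3 to 970.1 FPKM in WT and 1018 to 1210.6 FPKM in Hspa9 cKO. The part of H19 in the summed share was not tested. In the 15 long noncoding pairs listed in all libraries the median share was 7.28% ± 2.30 and 3.17% ± 1.30 (SD, n = 3 each), and the groups did not overlap. Over all 28 pairs they overlapped, both in the median, 5.39% ± 2.54 and 3.03% ± 1.21, and in the mean share, 13.95% ± 4.96 and 13.6% ± 3.50 (SD, n = 3 each). Several of these pairs share a gene.

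Gas5 and Snhg1 host small nucleolar RNAs in their introns. The 447-base intron 7 of Gas5 (chr1:161037548-161037994, plus strand) had a share of 31.2%, 32.9% and 35.8% in WT against 13.6%, 3.16% and 5.77% in Hspa9 cKO (limma, adjusted p = 0.197). A 304-base Gas5 intron had 7.43% to 14.6% in WT and 3.82% to 4.32% in Hspa9 cKO, and a 188-base Snhg1 intron 27.0% to 31.2% and 12.6% to 18.4%. No Gas5 or Snhg1 pair was called, and the other 4 Gas5 pairs did not all move this way: the 193-base intron stood at 21.7% in WT replicate 1 and 19.4% in Hspa9 cKO replicate 2 and at 7.62% or less elsewhere. Cct6a, a chaperonin subunit gene whose pair lies in a noncoding transcript, had a retaining form in WT replicate 3 alone, at 8.28 FPKM. Zfas1, another such host, was at 2.90% to 4.69% in WT and 3.44% to 3.70% in Hspa9 cKO. In the T cell receptor segments Trgv2, Trbc2 and Tcrg-C4 a form was missing from several libraries of both groups, so their shares jumped between 0% and 100% or could not be formed.

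Genes of splicing and decay were taken as 7 lists, chosen with earlier results of these data known. They held 112 of the 3159 pairs, in 76 genes, and 1 of these pairs was called, that of Sf3b1. Of the 105 list pairs with a share in all libraries 8 (7.62%) did not overlap between groups, against 9.23% of all retained-intron pairs. The list pairs described here were picked after their values were seen. The heterogeneous nuclear ribonucleoprotein gene Hnrnpm had 31.2%, 36.5% and 36.8% at its 117-base stretch in WT and 19.5%, 18.4% and 23.2% in Hspa9 cKO (limma, adjusted p = 0.403). Ewsr1, an RNA-binding protein, had 9.96%, 98.9% and 100% in WT and 0% in Hspa9 cKO (limma, adjusted p = 0.67), which shows how far single libraries of a group can differ. The SR protein kinase gene Srpk1 was at 49.1% to 60.6% in WT, and at 64.7%, 16.1% and 59.6% in Hspa9 cKO, where replicate 2 stood apart. An Srsf6 pair and 1 of 3 Srsf7 pairs, both in SR protein genes, had shares of 0.018% or less in every library. Clk1, a kinase related to Clk4, had 7.6% to 21.1% in WT and 5.85% to 13.0% in Hspa9 cKO at its 1349-base intron.

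A retaining form in a single library was found in 13 of the 66 list pairs of at least 20 FPKM (19.7%), near the 19.8% of all 1036 retained-intron pairs of that level. Among the snRNP and tri-snRNP genes this held for Snrpb2 (a U2 protein; 7.12% in WT replicate 1), Sf3a1 (of the SF3A complex; 9.65% in Hspa9 cKO replicate 1), Prpf19 (8.75% in Hspa9 cKO replicate 2) and Plrg1 (5.68% in Hspa9 cKO replicate 3), both of the complex that activates the spliceosome. It held for the SR protein genes Srsf10 (8.42% in WT replicate 2) and Srsf3 (51.8% in WT replicate 1, at an 829-base intron), and for Rnps1 of the exon junction complex (13.7% and 7.6% at 2 introns in Hspa9 cKO replicate 1). In the ribonucleoprotein genes Hnrnpu and Hnrnpul2 the shares were 14.1% and 10.6% in Hspa9 cKO replicate 3 and 0% in the other libraries. None of these values has a replicate, and no such pair was called.

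Other list pairs were retained in both groups without a difference beyond the spread of the libraries. Nxf1 encodes the main export factor of mRNA, and its 1765-base intron 10, which a coding transcript keeps, had a share of 25.6%, 37.8% and 17.3% in WT against 29.5%, 20.9% and 46.5% in Hspa9 cKO (limma, adjusted p = 0.843). Hnrnpk, a poly(C)-binding protein, kept its 78-base intron 13 at 10.6% to 17.7% in WT and 11.6% to 20.9% in Hspa9 cKO (limma, adjusted p = 0.837). Xab2, of the catalytic spliceosome, had 3.43% to 17.2% and 10% to 16%, and Hnrnpl, a repressor of exons, 1.32% to 1.71% and 0.376% to 1.55%. Tial1, a U-rich RNA binder, ranged from 7.99% to 47.8% in WT alone at its 334-base intron, and Ddx39b, an RNA helicase of splicing and export, had 61.7%, 0% and 61.9% in WT against 73.1%, 77.3% and 61.4% in Hspa9 cKO (limma, adjusted p = 0.661). The 1377-base intron 5 of Srsf7 had 52%, 67.3% and 29% in WT against 34.8%, 11.7% and 17.2% in Hspa9 cKO (limma, adjusted p = 0.514). The groups overlapped at each of these introns, for Srsf7 because WT replicate 3 lay below Hspa9 cKO replicate 1.

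The levels of these genes were tested among 9607 genes, of which 5.52% were called lower and 8.53% higher in Hspa9 cKO. Of the 166 list genes tested, 20 were lower and 1 higher (limma), and 13 of the 20 belonged to the 24 tested genes of the U1, U2 and core snRNP list, whose median log2 change was -0.46 against 0.06 over all genes. Snrpa1, a U2 protein, fell from 41.9 ± 0.721 in WT to 30.0 ± 0.916 FPKM in Hspa9 cKO (SD, n = 3 each; limma, adjusted p = 0.00920). For Sf3b4, of the SF3B complex, the levels were 58.1 ± 0.982 in WT and 40.9 ± 2.95 FPKM in Hspa9 cKO (SD, n = 3 each; limma, adjusted p = 0.0129). For Snrpe, a core Sm protein, they were 58.0 ± 1.82 and 42.6 ± 2.56 FPKM (SD, n = 3 each; limma, adjusted p = 0.0169). The other 10 were Snrpc, Snrpb, Snrpd1, Snrpd2, Snrpf, Sf3a2, Sf3a3, Sf3b3, Sf3b6 and U2af1, with changes from -0.33 to -0.81. Outside this list 7 genes were called lower: Eftud2 at -0.74 (1 of 29 tri-snRNP genes), Srsf9 at -0.52 and Srsf3 at -0.47 (2 of 18 SR genes), Hnrnpab at -0.57 and Mbnl3 at -1.71 (2 of 45 regulators), and Magoh at -0.63 and Ncbp1 at -0.30 (2 of 27 genes of the exon junction complex and decay). The gene called higher was Dyrk1b, at 0.55 (1 of 13 kinases). Of the 10 tested genes of the minor spliceosome, which removes rare introns, 0 were called (limma; 2 at an unadjusted p under 0.05). The count of 13 was 14 after rescaling by trimmed means, 12 without WT replicate 2, 5 without WT replicate 3, and 3 when WT replicate 1 or any of the Hspa9 cKO libraries was left out. It was 9 with no filter on low values and 0 with the replicate number as a block, where the median change stayed at -0.46.

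**Figure D5:**
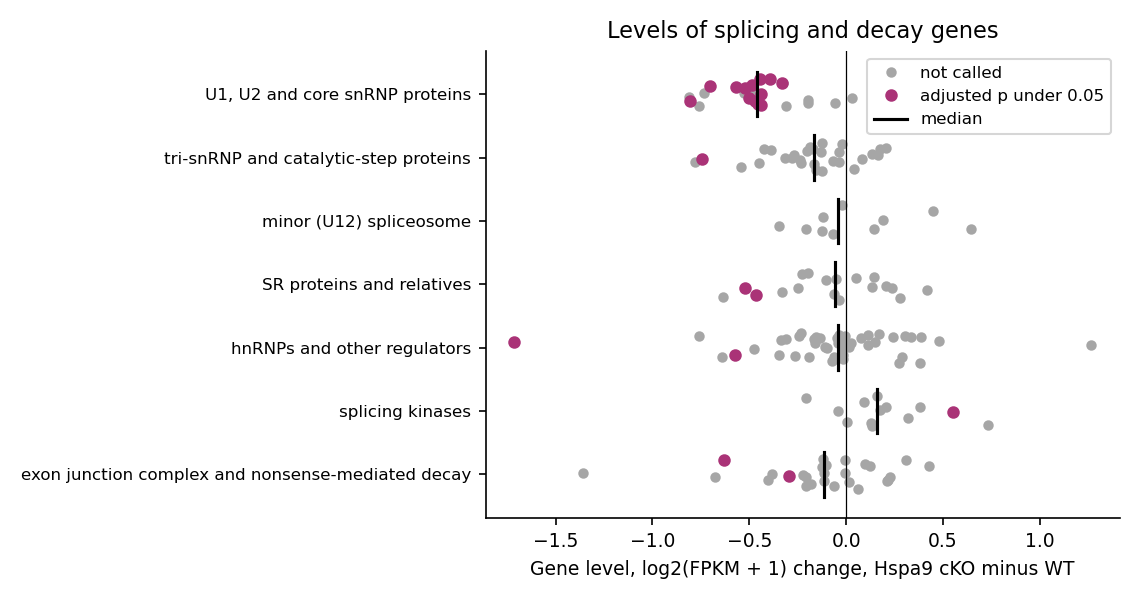
Log2 change of the gene level, Hspa9 cKO minus WT (horizontal axis, log2 of FPKM + 1), for the tested genes of the 7 lists (rows); dark points passed the adjusted threshold, grey points did not, and black bars mark each list's median. In the U1, U2 and core snRNP row 13 of 24 genes passed, all below 0.

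The host genes of retained introns were called about as often as other genes. Of 2088 host genes tested, 276 (13.2%) were called, 172 higher and 104 lower in Hspa9 cKO, against 14% of all genes tested. After rescaling by trimmed means there were 127 higher and 154 lower host genes. Over all genes the same rescaling turned 819 higher and 530 lower into 652 and 691, so the shift in direction was general. Host genes had a median log2 change of 0.03, against 0.06 for all genes. At the lower bound of the set, 4930503L19Rik and Slc25a15 were just inside with a mean ON + OFF of 5.002 and 5.007 FPKM, and Spo11 and Mgat4b just outside with 4.999 and 4.995 FPKM. The share of 4930503L19Rik ran from 0.00537% to 83.7% over the 6 libraries and that of Mgat4b was 13.5% in 1 library and 0% in the other 5.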

How the data were processed

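RNA was taken from DN3 thymocytes in 6 libraries, grouped by their titles. Per the labels' protocols, either poly(A) capture or ribosomal RNA depletion preceded library preparation, and the labels leave the choice unstated, so unspliced precursor RNA and stable retained introns cannot be told apart. The build was mm10 and trimming used cutadapt 1.9.1, per the submitters' processing notes; for aligner, assembler and event caller: not given in the sources used here. The authors deposited FPKM per event, and per the file headers each row is 1 event; depth is unknown.

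Repeated event numbers were dropped, ON and OFF events paired, and unlisted events set to 0. Ratios log2((ON + 1)/(OFF + 1)) and gene levels log2(FPKM + 1), for genes of at least 1 FPKM in 3 or more libraries, were fitted with limma 3.58.1 (R 4.3.3; trended, robust) with Benjamini-Hochberg adjustment. A gene's level is the summed FPKM of its starts or ends. In simulated data, 30%, 42% and 58% of the ratios changed by 2, 3 and 4 on the log2 scale were recovered, and 0% of those changed by 1. Named were all called pairs, the 8 smallest p in each direction with both events listed throughout, the highest shares and totals, examples of each class, list genes and pairs at the threshold; Sf3b1, Ivns1abp, Ctdsp1 and Arl5c were named beforehand. The members and lists were chosen with earlier results of these data known. Alternatives changed the pseudocount, level, scaling, fit and libraries. A few items that this rule names are not reported here.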

Additional observations from a re-analysis of the deposited data

How the results depend on the processing

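Of the 15 retained-intron pairs called, the count was 3 among pairs with both events listed in all 6 libraries, 9 with 1 value per intron and 1 to 6 without 1 library (3, 1 and 6 on leaving out WT replicates 1 to 3 in turn; 2, 3 and 1 for the Hspa9 cKO replicates). The Ivns1abp pair with a change of 7.57 reversed to -0.34 with 1 value per intron, which sums events with different edges. The 21 splicing-list genes called became 6 to 16, and the 276 host genes 112 to 178, without 1 library. Over all genes, 819 higher and 530 lower became 299 to 543 higher and 216 to 344 lower in these fits. With the replicate number as a block the counts were 0 pairs (limma, with 219 at an unadjusted p under 0.05), 2 list genes and 47 host genes. Same-numbered libraries did not deviate together (correlations from -0.0523 to 0.0143). The labels do not say whether the numbers pair the samples, and these correlations cannot exclude a pairing. The median share in WT, 0.994%, was 1.36% at 20 FPKM or more, 6.48% with both events listed and 10.4% as a ratio of sums; in Hspa9 cKO, 1.39% became 6.45%, 11% and, at 1 FPKM or more, 1.97%. Keeping a repeated event number at each intron, an alternative chosen after seeing the data, gave 15 calls. Other alternatives kept each count within 1.5 times. Of the single-pair values under other settings, 263 kept direction and side of the threshold, 107 lost and 3 gained a call, and 1 reversed; the cause was not tested. Unknown depth limits all shares at low FPKM.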
